A study of Danio rerio with 12 samples.

Results

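Attention to a calm stimulus was examined by comparing bystanders that were attentive to non-interacting conspecifics (BANIC) with bystanders that were inattentive to them (BINIC). Both groups had the same treatment and differed in what the fish did with it. The comparison used 6 of the 12 arrays of the series, 3 from each group, and every annotated gene. All fish were AB wild-type zebrafish, adult males at 11 months of age. Each spent the night alone in its test tank and was then tested once for 30 min. In both groups the fish could see, through a one-way mirror, a pair of males that did not interact, and no chemical signal passed between the tanks. The other 6 arrays came from bystanders to interacting, that is fighting, conspecifics (BIC, 3 fish) and from socially isolated fish (ISOL, 3 fish), held and tested in the same way.

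The fish were not assigned to be attentive. They were picked from a larger set of tested males by the time they spent near the stimulus and by how they faced it, so that whether a level of RNA followed from attention or was already there cannot be told apart. Each array held the whole brain of 1 fish, frozen immediately after the test, and the replicates were therefore separate animals. The values were log2 values from Affymetrix zebrafish gene 1.1 ST arrays, normalized together by robust multiarray averaging (RMA), so a difference of 1 stands for a doubling. In such bulk samples fewer cells of a type and less RNA per cell cannot be told apart.

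Neurons that have been strongly activated transcribe immediate early genes within minutes, without waiting for new protein. Many of these genes encode transcription factors, such as the Fos and Jun proteins that form AP-1, the Egr zinc finger proteins, the orphan nuclear receptors of the Nr4a family and the calcium-dependent factor Npas4. Others encode effectors, such as phosphatases and Sprouty proteins that limit MAP kinase signaling, secreted synaptic proteins and growth factors. They are widely used in zebrafish brain to mark recently active cells.

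The brains of the 6 fish were very similar. Over the 19142 genes the arrays correlated at 0.9912 to 0.9921 within BANIC, at 0.9912 to 0.9924 within BINIC and at 0.9901 to 0.9923 between the groups. The median log2 difference, BANIC minus BINIC, was -0.015, and only 10 genes were higher and 10 lower in BANIC by 1 or more. With a limma FDR under 0.05 and a log2 difference of at least 1 as thresholds for differential expression (DE), 1 gene was DE, 0.00522% of those tested. The unadjusted P was under 0.05 for 1596 genes (8.34%) and under 0.01 for 362 (1.89%), of which 157 (0.820%) were higher and 205 (1.07%) lower in BANIC. The median size of their log2 differences was 0.35, and 60 of them differed by 0.5 or more. In 2908 genes the 3 values of one group all lay above the 3 of the other, with BANIC above in 1148 (6.0%) and below in 1760 (9.19%). The words higher and lower are used below for measured differences in genes that did not pass the FDR threshold.

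Neuronal markers had a mean level of 9.24 to 9.33 in the 6 brains, with no difference at P under 0.01 in any of 10 genes. Markers of other tissues differed between single arrays. The mean of 42 photoreceptor and pineal genes was 4.38 in BANIC1, 4.3 in BINIC1 and 4.35 in BINIC3 against 3.77 to 3.83 in the other 3 fish, so that it divided both groups. The mean of 14 muscle genes was 5.04 in BANIC3 and 4.12 to 4.45 in the other 5 brains. The mean of 7 erythrocyte genes was 6.49 to 6.73 in BANIC and 6.07 to 6.39 in BINIC, without overlap. Here 6 of the 7 genes had a higher mean in BANIC, and 2 of them had a P under 0.01, against 0.820% of all genes. These were hbaa2 (a hemoglobin alpha chain, 0.73) and alas2 (the erythroid enzyme of heme synthesis, 0.50). A second, dimmer probe set of hbaa2 differed by only 0.19. The count at P under 0.01 was 0 without BANIC1, BANIC2 or BINIC2 and in the fit of all 4 groups, and 1 without BANIC3 or BINIC3. The erythrocyte means ranged more widely among the fish outside this comparison, from 6.04 to 7.10 in BIC and from 5.75 to 6.99 in ISOL. The part of blood in the results that follow was not tested.

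The DE gene was LOC100331149, which the study's gene tables name as a copy of osbpl1a, for oxysterol-binding protein-like 1A, a member of a family of lipid-binding proteins that act where membranes meet. Its log2 values were 4.81, 4.85 and 5.02 in BANIC and 7.18, 7.39 and 7.62 in BINIC. The groups were far apart, and each was tight. The difference was -2.50 ± 0.12 (SE, limma adjusted p = 0.00198, n = 3 in each group), so that the level was 5.66-fold higher in inattentive than in attentive fish. Isolated fish had values of 4.88, 5.11 and 4.87, at the level of the attentive bystanders. In BIC the values were 4.84, 5.0 and 7.05, so that 1 attentive fish in front of a fight had nearly the level of the inattentive ones. A high level of this gene was thus present in the 3 BINIC fish and in BIC3, and in none of the other 8. When all 4 groups were fitted together, so that the spread within BIC entered the test, the adjusted p was 0.15 and the gene was no longer called.

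Early genes that encode transcription factors, a list that also holds the kinase gene sik1, held the largest share of genes higher in BANIC among 16 pathway lists, leaving aside the list of genes that had been called on these arrays. The early list shares npas4a, npas4b, fosab, egr4 and nr4a1 with the list left aside, and each of them had a P under 0.01 here. Its share and rank are therefore not independent of those earlier calls. Of 39 genes measured, 9 (23.1%) had a P under 0.01, and all 9 were higher in attentive fish, against 0.820% of all genes. In 18 (46.2%) all 3 BANIC values were above all 3 BINIC values, against 6.0% of all genes, and in 1 they were below. The median difference over the list was 0.25, with a higher mean in BANIC for 34 of 39, against 8530 of all 19142 genes. None passed the FDR threshold. The mean over the list was 6.55 to 6.66 in the BANIC fish and 6.24 to 6.33 in the BINIC fish, so each attentive fish was above each inattentive one. Leaving out each of the 6 fish in turn gave 9 to 11 genes higher at P under 0.01, and 10 with either of 2 other scalings.

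The largest differences of the list were in both npas4 genes. For npas4a, whose product starts an activity-dependent program in neurons, the values were 8.83, 8.56 and 9.47 in BANIC and 7.50, 7.80 and 7.39 in BINIC. The lowest attentive fish was above the highest inattentive one, and the difference was 1.39 ± 0.23 (SE, limma adjusted p = 0.289). For npas4b the values were 7.21, 6.92 and 6.28 in BANIC and 5.0, 5.27 and 5.68 in BINIC, a difference of 1.49 ± 0.26 (limma adjusted p = 0.339). The groups did not overlap here either, but the second probe set placed on npas4b differed by only 0.34 (unadjusted P = 0.193), so the size for this gene depends on the probe set.

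Of the AP-1 genes, fosab, the zebrafish fos, had the smallest P of the list. Its values were 8.40, 8.13 and 8.75 in BANIC and 7.23, 6.95 and 7.25 in BINIC, a difference of 1.28 ± 0.16 (SE, limma adjusted p = 0.219). Among its partners junbb was higher by 0.94, with 5.04, 5.0 and 5.19 in BANIC against 4.64, 3.88 and 3.87 in BINIC. The BINIC values were uneven, since BINIC1 lay between the attentive fish and the other two. jund was higher by 0.35, fosb by 0.44 and junba by 0.37, each with no overlap. jun itself did not follow: its values were 6.0, 5.98 and 5.92 in BANIC and 5.97, 5.87 and 5.94 in BINIC, a difference of 0.04 ± 0.06.

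The Egr genes had higher means in BANIC, with differences of 0.92 for egr4, 0.56 for egr2a, 0.38 for egr3, 0.35 for egr1 and 0.27 for egr2b. In egr2b the groups overlapped. egr4 had values of 7.25, 7.11 and 7.40 in BANIC and 6.06, 6.52 and 6.40 in BINIC. Its adjusted p was 0.245 in the limma fit and 0.0463 when the prior variance followed the mean level (trended and robust limma). egr1, the member most often used as a marker of activity, had 8.89, 8.98 and 8.92 in BANIC and 8.37, 8.57 and 8.80 in BINIC, so that BINIC3 was close to the attentive fish. Among the nuclear receptors, nr4a1 had 5.85, 5.87 and 5.81 in BANIC and 4.13, 5.04 and 5.11 in BINIC. The difference was 1.08 ± 0.24 (SE, limma adjusted p = 0.458), and the BINIC values were spread by the low value of BINIC1. nr4a2b and nr4a3 were higher by 0.36 and 0.26, and nr4a2a differed by 0.00. sik1, which encodes a kinase that restrains CREB-dependent transcription, had 8.12, 8.04 and 8.13 in BANIC and 7.32, 7.60 and 7.29 in BINIC, a difference of 0.69 ± 0.09 (limma adjusted p = 0.236).

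**Figure D1:**
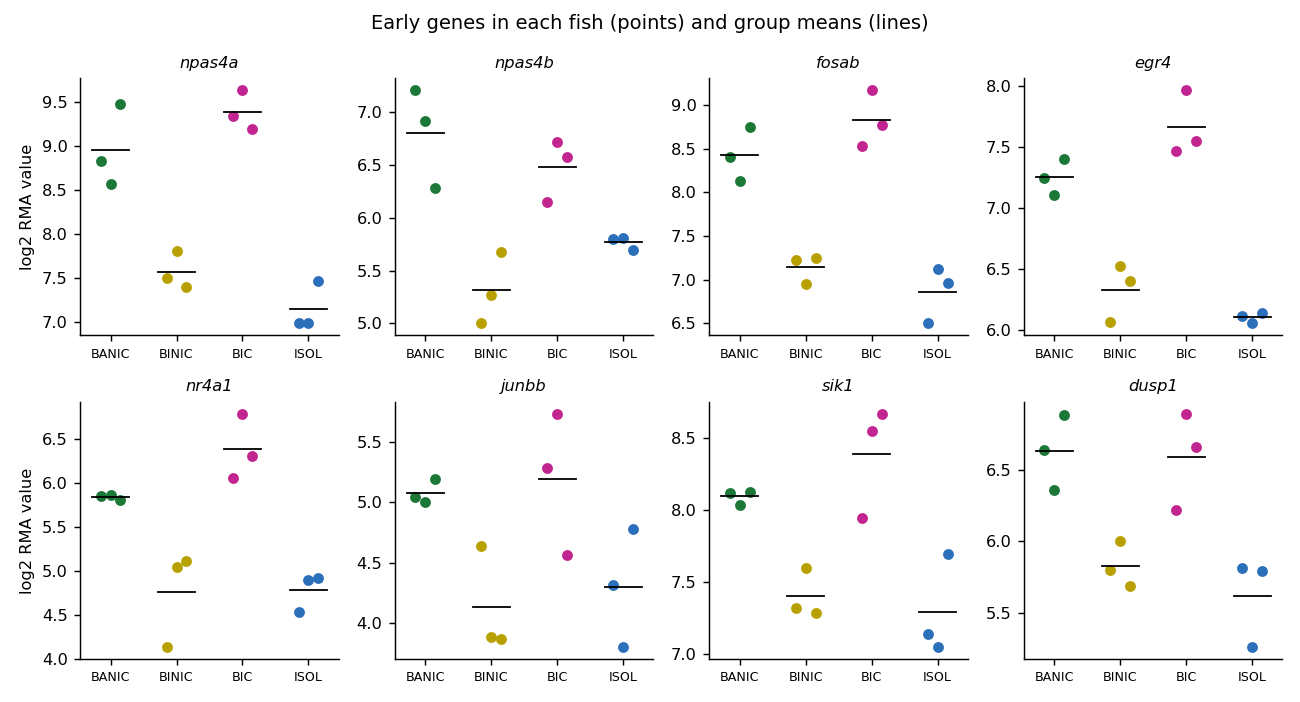
Log2 RMA values (y axis) of 8 early genes in the 12 fish by group (x axis). Each point is 1 fish, the 3 points of a group are offset sideways for legibility, and lines are group means (n = 3). In each panel the 3 BANIC fish lie above the 3 BINIC fish.

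Genes of the list that were not higher included klf9, a target of the glucocorticoid receptor, at 0.01, mych at 0.02 and klf6a at 0.04. The gene below was nfil3, which encodes a bZIP repressor, at 5.76, 5.90 and 5.66 in BANIC and 6.01, 5.98 and 6.17 in BINIC. Families were thus divided: klf4 and klf2a were higher by 0.37 and 0.32 while klf9 and klf6a were near 0, and jund and junbb were higher while jun was not.

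Early effector genes were also higher in part. Of 51 measured, 9 were higher and 1 was lower in BANIC at P under 0.01, together 19.6%, against 1.89% of all genes, and the median over the list was 0.07. In 13 (25.5%) all BANIC values were above all BINIC values and in 4 (7.84%) below, against 6.0% and 9.19% of all genes. The mean over the list was 6.60 to 6.73 in the BANIC fish and 6.47 to 6.63 in the BINIC fish, so the groups overlapped. Leaving out each fish in turn gave 6 to 8 genes higher at P under 0.01 and 1 or 2 lower. Among the higher genes, btg2 and zgc:122979 had also been called on these arrays before, so this count is not independent of those calls. Within the list, genes that limit MAP kinase signaling were among the higher ones. dusp1, a phosphatase of MAP kinases, had 6.64, 6.36 and 6.88 in BANIC and 5.80, 6.0 and 5.69 in BINIC, a difference of 0.80 ± 0.14 (SE, limma adjusted p = 0.339). dusp5, a nuclear ERK phosphatase, was higher by 0.47 and spry4, a Sprouty protein, by 0.57, while spry2 differed by -0.11.

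The antiproliferative gene btg2 had 7.15, 6.95 and 7.52 in BANIC and 6.66, 6.34 and 6.47 in BINIC, and the immediate early gene ier2b was higher by 0.55. zgc:122979, a chaperone gene that the same tables name as a copy of dnajb5, had 9.03, 8.79 and 9.67 in BANIC and 8.36, 8.49 and 7.91 in BINIC. Its difference of 0.91 ± 0.24 was uneven, since BANIC3 and BINIC3 were the extremes. The synaptic gene nptx2a, which encodes a secreted pentraxin that gathers AMPA receptors, had nearly constant levels within each group, 7.41, 7.42 and 7.42 in BANIC and 7.11, 7.03 and 7.02 in BINIC. The secreted matrix genes ccn1 and ccn2a were higher by 0.32 and 0.34. bdnf, a neurotrophin, had 6.27, 6.06 and 6.04 in BANIC and 5.79, 5.96 and 5.75 in BINIC, a difference of 0.29 (unadjusted P = 0.0165). The lower gene was rgs2, a regulator of G protein signaling, with 4.87, 5.04 and 4.84 in BANIC and 5.31, 5.29 and 5.34 in BINIC.

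**Figure D2:**
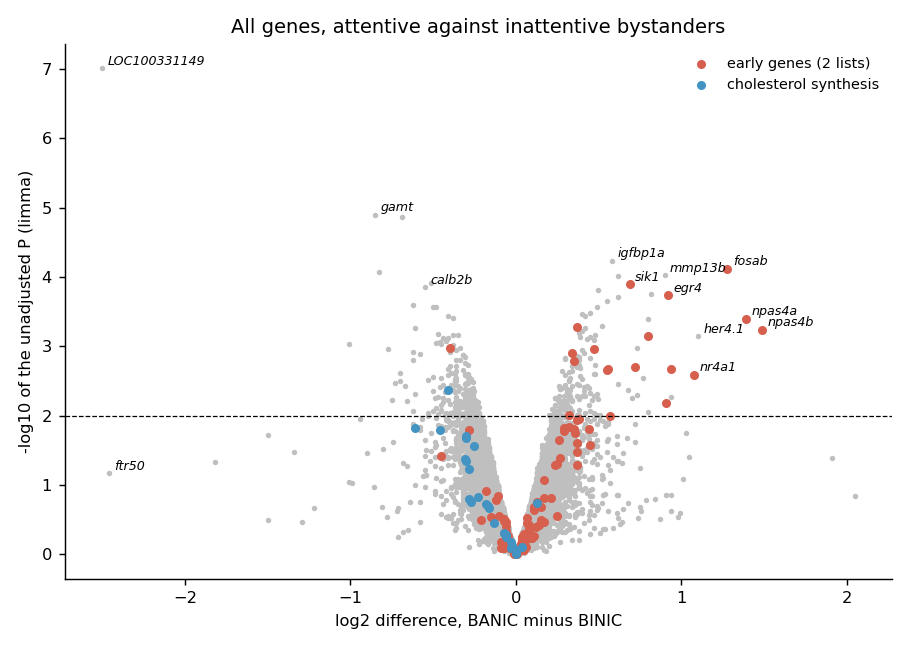
Log2 difference BANIC minus BINIC (x axis) against -log10 of the unadjusted limma P (y axis) for 19142 genes, with both early gene lists in red and cholesterol synthesis genes in blue. The dashed line marks the threshold of 0.01. LOC100331149, at -2.50, was the gene called, and the early genes above the line lie on the higher side except rgs2.

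The genes with the smallest P after the DE gene were not early genes. gamt, which encodes the enzyme that completes creatine synthesis, had 5.30, 5.29 and 5.18 in BANIC and 6.22, 5.99 and 6.11 in BINIC. The difference was -0.85 ± 0.08 (SE, limma adjusted p = 0.0926), and the uncharacterized gene si:dkey-56f14.7, at -0.69, had the same adjusted p. With dim probe sets removed both had an adjusted p of 0.0298, below the FDR threshold and short of the fold threshold. gamt varied as much in the fish outside this comparison, from 5.0 to 5.98 in BIC and from 5.10 to 6.18 in ISOL.

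Other genes lower in BANIC, among the 15 of smallest P with a gene symbol, had varied roles. calb2b, which encodes the neuronal calcium buffer calretinin, had 7.08, 7.03 and 7.22 in BANIC and 7.70, 7.67 and 7.60 in BINIC. mchr1b, a receptor of melanin-concentrating hormone, had 5.15, 5.34 and 5.32 in BANIC and 5.71, 5.83 and 5.79 in BINIC, a difference of -0.50, and a second, dimmer probe set gave -0.12. park7, the gene of the redox-sensitive protein DJ-1, had 6.59, 6.79 and 7.0 in BANIC and 7.38, 7.43 and 7.41 in BINIC. The attentive fish were spread more than the inattentive ones in that gene. psmb1, a subunit of the proteasome core, differed by -0.46, rab3ab, of synaptic vesicle traffic, by -0.48, and ppp1cb, a catalytic subunit of protein phosphatase 1, by -0.45. cd44a, a receptor of hyaluronan, differed by -0.48, the bicarbonate transporter gene slc4a5a by -0.41, popdc2 by -0.44, smarcal1, of DNA repair, by -0.38, lsm8, of RNA processing, by -0.35, mrps14, of the mitochondrial ribosome, by -0.38 and tmem17, of the ciliary transition zone, by -1.01. In each of these genes the groups did not overlap.

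Of the 15 genes of smallest P that were higher in BANIC and have a gene symbol, those outside the early gene lists were igfbp1a, mmp13b, gdf3, nudc, dicp3.6, ND6, ino80c, rtn4rl2a, slc48a1a, cdkn1bb and ndufs5. igfbp1a, a secreted protein that binds insulin-like growth factors, had 6.39, 6.46 and 6.33 in BANIC and 5.75, 5.88 and 5.81 in BINIC. mmp13b, a collagenase, had 4.5, 4.4 and 4.81 in BANIC and 3.78, 3.64 and 3.58 in BINIC. nudc, which encodes a partner of the dynein motor, had 8.42, 8.33 and 8.33 in BANIC and 7.78, 7.86 and 7.94 in BINIC. ND6, a mitochondrial gene for a subunit of respiratory complex I, had 8.0, 8.15 and 8.32 in BANIC and 7.54, 7.53 and 7.52 in BINIC, and ndufs5, a nuclear gene for another subunit, was higher by 0.42. Other genes of the complex were not examined as a list. rtn4rl2a, a Nogo receptor homolog, was higher by 0.49, slc48a1a, a heme transporter gene, by 0.45, and cdkn1bb, of the p27 family of cell cycle inhibitors, by 0.40, in both of its probe sets. dicp3.6, an immune receptor gene, was higher by 0.82 within this comparison but ranged from 3.26 to 5.25 in the BIC fish. igfbp1a ranged from 5.87 to 7.52 and cdkn1bb from 7.46 to 8.27 in BIC. In ISOL mmp13b ranged from 3.47 to 4.29, gdf3 from 6.13 to 6.72 and ino80c from 7.44 to 8.0. For nudc, ND6, ndufs5 and slc48a1a all BIC and ISOL values were above the BINIC ones. For rtn4rl2a all BIC values were above all ISOL values.

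The other 2 groups, which share no fish with this comparison, gave a second view of the same genes. BIC against ISOL also sets attentive fish against others, but the BIC fish saw a fight and the ISOL fish faced an empty tank. In that pair attention, the sight of other fish and the sight of a fight cannot be told apart. Of the 157 genes higher in BANIC at P under 0.01, 80 (51.0%) had a higher mean in BIC than in ISOL, and of the 205 lower ones 103 (50.2%) had a lower mean, against 46.0% of all genes with a higher and 52.7% of all genes with a lower mean in BANIC. As a whole the genes of the calm comparison thus had the direction of the fight comparison about as often as other genes did. Of the 157 higher genes, 18 were also higher in BIC at P under 0.01, where 0.481% of all genes were, and 2, hint2 and wnt8b, were lower in BIC, where 0.538% of all genes were. Of the 205 lower genes 1, the carboxylesterase gene ces2b, was also lower in BIC, and 1, lss, was higher.

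The 18 genes were fosab, sik1, egr4, npas4a, npas4b, jund, egr2a and nr4a1 of the transcription factor list, dusp1, dusp5, btg2, ier2b, spry4 and zgc:122979 of the effector list, and rtn4rl2a, rasd2a, vps37bb and LOC797711 outside both. For most of them the difference was smaller between BANIC and BINIC than between BIC and ISOL. It was 1.39 against 2.24 for npas4a, 1.28 against 1.96 for fosab, 0.92 against 1.57 for egr4, 1.08 against 1.60 for nr4a1 and 0.72 against 1.28 for btg2. npas4b was the other way by its probe set of highest mean, at 1.49 against 0.71, and junbb was alike, at 0.94 and 0.89. The second probe set of npas4b differed by only 0.34 between BANIC and BINIC (limma unadjusted P = 0.193). The study reports a larger difference between BIC and ISOL for npas4b than the probe set of highest mean gave. The reversed order of npas4b and its test below therefore depend on the probe set. The difference between the 2 comparisons, tested over all 12 arrays, had an unadjusted limma P of 0.00836 for egr4, 0.0178 for npas4a and 0.0315 for btg2. It was 0.0354 for fosab, 0.0361 for npas4b and 0.0444 for zgc:122979, whose differences were 0.91 and 1.78. No adjusted p among these genes was below 0.694. Over all genes 0 passed the FDR threshold of that test, 1314 (6.86%) had an unadjusted P under 0.05 and 261 (1.36%) one under 0.01, by limma. The sizes therefore could not be told to differ. nr4a2b and nptx2a, higher in BANIC by 0.36 and 0.37, differed by -0.01 and -0.14 between BIC and ISOL.

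**Figure D3:**
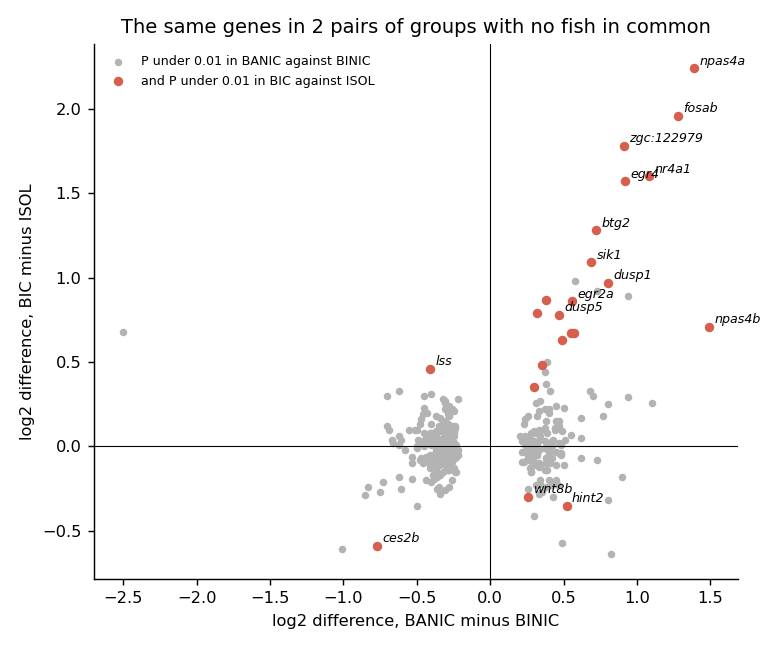
Log2 difference BANIC minus BINIC (x axis) against log2 difference BIC minus ISOL (y axis) for the 362 genes with P under 0.01 in the first, and in red those with P under 0.01 also in the second, 19 in the same and 3 in the opposite direction. Early genes form the arm at upper right, and most other genes are scattered about 0 on the y axis.

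The means of all 4 groups were set side by side to describe where BIC and ISOL lay. The 362 genes were picked by their BANIC and BINIC values, so which side of the comparison stood apart was not tested. For each gene the BIC and the ISOL mean were each assigned to the nearer of the BANIC and BINIC means. Both were nearer BANIC for 194 of the 362 genes (53.6%), against 39.1% of all genes, and both were nearer BINIC for 51 (14.1%), against 24.4%. Among the 205 lower genes 124 (60.5%) had both nearer BANIC, against 40.0% of all genes with a lower mean in BANIC. This order is one of means, and single fish could cross it, as BIC3 did in LOC100331149 and ISOL2, at 10.44, in rab3ab. LOC100331149, calb2b, nudc, ND6, ndufs5, mchr1b, park7, cd44a, popdc2, ppp1cb and psmb1 had it. calb2b, for example, had 7.40, 7.08 and 7.21 in BIC and 6.98, 7.29 and 7.12 in ISOL, all below the 3 BINIC values. nudc had 8.48, 8.43 and 8.32 in BIC and 8.52, 8.57 and 8.46 in ISOL, all above the 3 BINIC values.

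Most early genes had another order, with the BIC mean nearer BANIC and the ISOL mean nearer BINIC. It was found in 26 of the 39 early transcription factor genes (66.7%) and 25 of the 51 effectors (49.0%), against 18.7% of all genes, and in 42 of the 157 higher genes (26.8%), against 17.4% of all genes with a higher mean in BANIC. Of the early genes with a P under 0.01, nptx2a was the exception, with ISOL nearer BANIC and BIC nearer BINIC. In npas4b the BINIC values were also below all ISOL values, of 5.80, 5.81 and 5.70. For fosab the values were 8.53, 9.17 and 8.77 in BIC and 6.50, 7.12 and 6.96 in ISOL. For npas4a they were 9.34, 9.63 and 9.19 in BIC and 6.98, 6.98 and 7.46 in ISOL. The inattentive bystanders, at 7.50, 7.80 and 7.39 for npas4a, thus overlapped the isolated fish and reached above them.

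**Figure D4:**
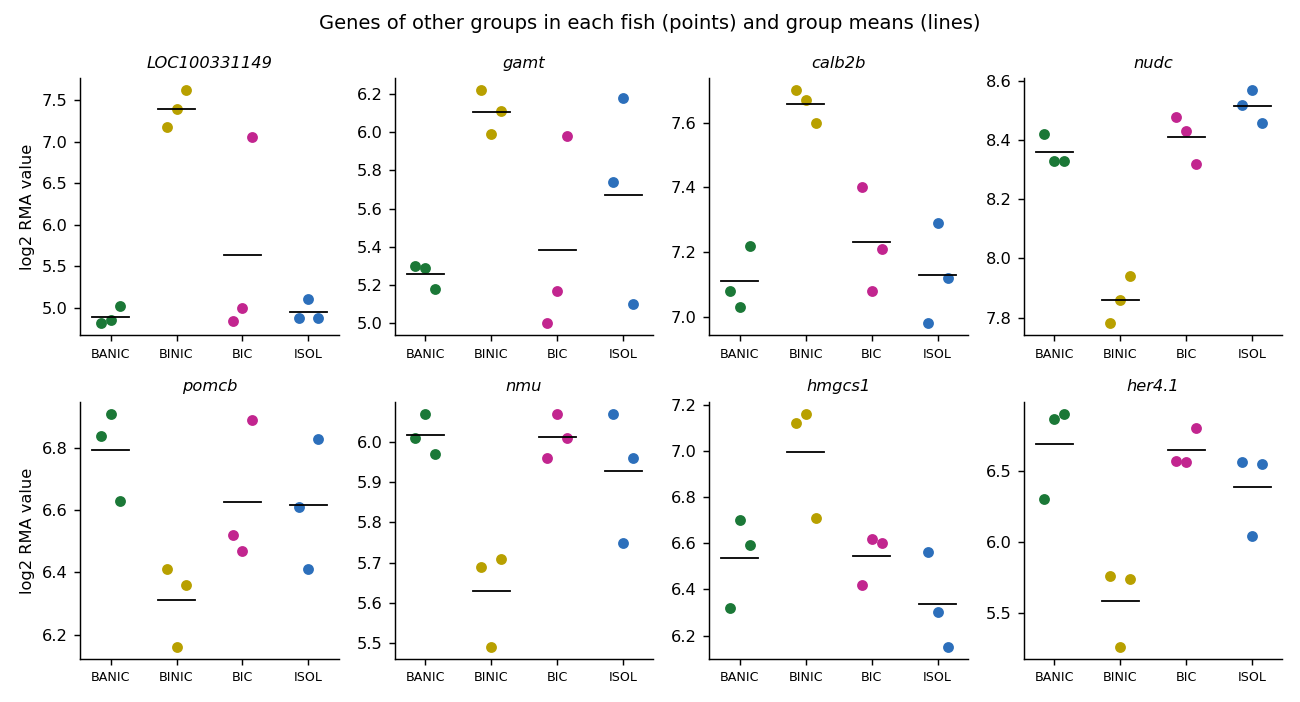
Log2 RMA values (y axis) of 8 genes outside the early gene lists in the 12 fish by group (x axis). Each point is 1 fish and lines are group means (n = 3). For LOC100331149, calb2b, nudc and her4.1 the BINIC fish lie apart from BANIC and from ISOL, whereas gamt is spread within BIC and ISOL.

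Several neuropeptide genes were higher in BANIC than in BINIC by small amounts. Of 62 neuropeptide and receptor genes in the list, 4 (6.45%) had a P under 0.01 and were higher in BANIC, against 0.820% of all genes. In 13 (21.0%) all BANIC values were above all BINIC values, against 6.0% of all genes, and in 1 (1.61%) below, against 9.19%. The receptor gene mchr1b, which was lower by the values above, is not in the list. Leaving out 1 fish gave 2 or 3 higher genes at P under 0.01. pomcb, a proopiomelanocortin gene, had 6.84, 6.91 and 6.63 in BANIC and 6.41, 6.16 and 6.36 in BINIC. nmu, of neuromedin U, had 6.01, 6.07 and 5.97 against 5.69, 5.49 and 5.71. The appetite-related gene cart2 was higher by 0.24 and crhb, of corticotropin-releasing hormone, by 0.28, although a second, dim probe set of crhb gave -0.22. Beyond these, trh, adcyap1a, crha, penka, agrp and uts1 did not overlap between the groups, with differences of 0.15 to 0.29. For nmu the isolated fish were not low: the values were 6.07, 5.75 and 5.96 in ISOL and 5.96, 6.07 and 6.01 in BIC, so that the BINIC fish were the lowest group. The BIC and ISOL means were both nearer BANIC in pomcb, cart2 and crhb as well. BANIC minus ISOL was only 0.18, -0.02 and 0.14 in these genes.

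Transmitter systems differed little. th, which encodes the rate-limiting enzyme of catecholamine synthesis, had 7.52, 7.46 and 7.47 in BANIC and 7.16, 7.20 and 7.28 in BINIC, a difference of 0.27 ± 0.07 (SE, limma adjusted p = 0.491). A second, dim probe set of th gave -0.02. th was the 1 gene of 45 (2.22%) for noradrenaline and dopamine with a P under 0.01, near the 1.89% of all genes. The vesicular monoamine transporter gene slc18a2 was at -0.28. None of 27 genes for acetylcholine, 28 for serotonin and histamine, 40 for glutamate receptors, 39 for GABA and glycine and 39 voltage-gated potassium channels had a P under 0.01. With 1.89% of all genes at that threshold, lists of this size hold few such genes or none. Among the glutamate receptors 6 (15.0%) were below in all BANIC fish, against 9.19% of all genes, among them the AMPA receptor genes gria1a, gria1b and gria2b at -0.16, -0.12 and -0.16. Their list means were 7.57 to 7.59 in BANIC and 7.58 to 7.65 in BINIC. The GABA and glycine mean was 7.55 to 7.58 in BANIC and 7.59 to 7.65 in BINIC, without overlap. BINIC1, at 7.59, had an array median of 5.713, and BANIC2, at 7.58, one of 5.684, so that the gap depends on the scaling. A lower mean in BANIC was found in 31 of the 39 genes, against 10612 of all 19142. After median centring 28 had it, and after quantile normalization 27. Of these 39, 2 (5.13%) were above and 3 (7.69%) below in all BANIC fish, against 6.0% and 9.19% of all genes.

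Genes of cholesterol synthesis were on the lower side. Of 26 measured, 23 had a lower mean in BANIC, as did 10612 of all 19142 genes, and the median was -0.18. In 5 (19.2%) all BANIC values were below all BINIC values, against 9.19% of all genes, with 0 above. Only lss (3.85% of the list), which encodes the enzyme that closes the sterol ring, had a P under 0.01, against 1.89% of all genes. Its values were 4.03, 4.34 and 4.28 in BANIC and 4.73, 4.62 and 4.53 in BINIC. hmgcs1, an early enzyme of the pathway, was at -0.46, dhcr7 and msmo1 were each at -0.30 and idi1 at -0.25. hsd17b7 was at -0.61, but BINIC3 lay with the attentive fish in that gene. The list mean was 6.05 to 6.19 in BANIC and 6.20 to 6.40 in BINIC, and BINIC3 had the lowest of the latter. Without BINIC3 6 genes were lower at P under 0.01, where 0.972% of all genes were. Without BANIC1, BINIC1 or BINIC2 there were 0. In ISOL the list mean was 5.95 to 6.08, and the median of BIC against ISOL was 0.18.

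Genes of glucocorticoid action and of the clock were examined as well. Of 22 glucocorticoid receptor and target genes 2 (9.09%) were higher at P under 0.01, against 0.820% of all genes. These were dusp1 and txnipa, a regulator of glucose uptake, higher by 0.80 and 0.37. In 4 (18.2%) all BANIC values were above all BINIC values, against 6.0% of all genes, and in 0 below, against 9.19%. The count higher at P under 0.01 was 1 without BANIC1, BANIC3, BINIC2 or BINIC3 and 3 without BINIC1. The list median of 0.07 turned to -0.09 without BANIC3 and -0.07 without BINIC3. dusp1 is also counted among the early effectors. None of 47 circadian clock genes and none of 27 clustered protocadherins had a P under 0.01. Of 74 heat shock and DnaJ genes zgc:122979 alone did (1.35%), near the 1.89% of all genes. In that list 10 (13.5%) were below in all BANIC fish, near the 9.19% of all genes, such as hspd1, the mitochondrial chaperonin, at -0.27.

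In the Notch pathway the largest difference was in her4.1, a direct Notch target of the Hes family expressed in radial glia. It had 6.30, 6.86 and 6.90 in BANIC and 5.76, 5.26 and 5.74 in BINIC, a difference of 1.10 ± 0.20 (SE, limma adjusted p = 0.339). her4.1 was the 1 gene of 49 (2.04%) with a P under 0.01, near the 1.89% of all genes. The other 48 genes of the list had a P above 0.01, the median was -0.02, and jag1b, a Notch ligand, and her6 were at -0.24 and -0.18. Among 11 genes of radial glia, a list that also holds her4.1, the median was 0.01, and gfap was at -0.37 (unadjusted P = 0.0323). her4.1 was 6.56, 6.04 and 6.55 in ISOL, so that again the inattentive fish were the lowest.

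**Figure D5:**
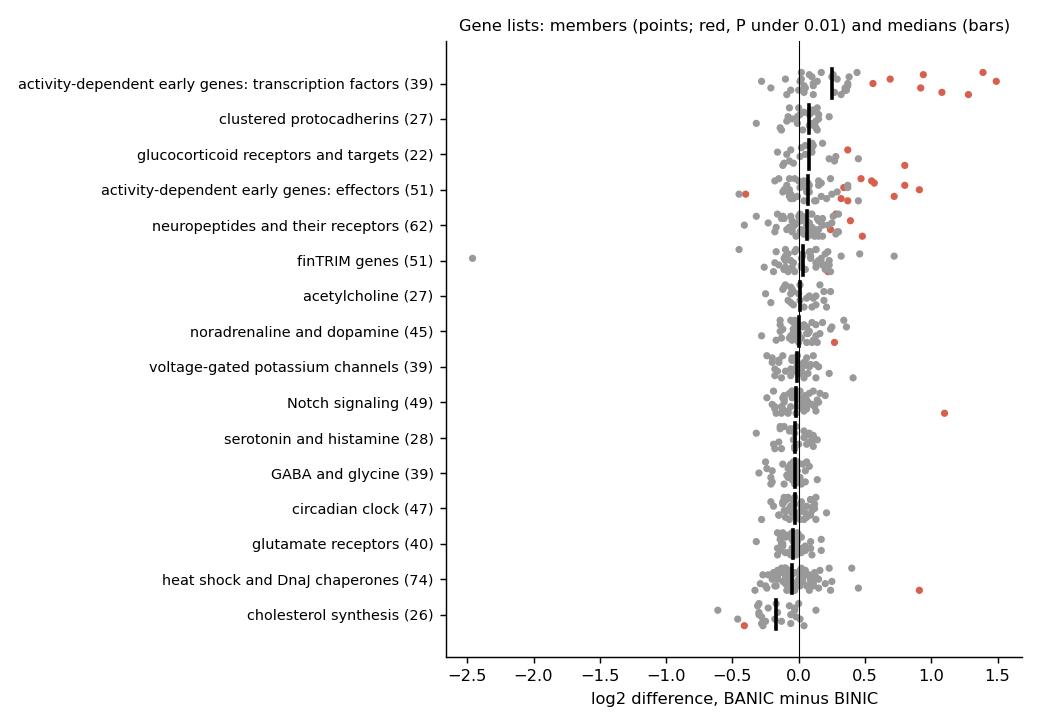
Log2 difference BANIC minus BINIC (x axis) of the members of 16 gene lists (y axis, number of genes measured in brackets). Points are genes, red at P under 0.01, and bars are medians, from 0.25 for early transcription factors to -0.18 for cholesterol synthesis.

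Markers of brain regions and cell types gave few differences. In the telencephalon list eomesa, a marker of the pallium, was higher by 0.27 and emx2 was at -0.31. eomesa was the 1 gene of 13 (7.69%) with a P under 0.01, against 1.89% of all genes. No gene of that list was higher at P under 0.01 without BANIC2, BANIC3, BINIC1, BINIC2 or BINIC3. None of the genes of microglia, endothelium, oligodendrocytes, dividing cells, pituitary, cerebellum, hypothalamus, habenula or hindbrain had a P under 0.01. Of 9 genes of the optic tectum and midbrain, 3 (33.3%) were above and 3 below in all BANIC fish, against 6.0% and 9.19% of all genes, with en2a at 0.24 and gata2a at -0.20. The oligodendrocyte mean was 7.85 to 7.89 in BANIC and 7.94 to 8.0 in BINIC, without overlap, but it ranged from 7.82 to 8.0 within BIC. Of the 7 genes measured, 5 had a lower mean in BANIC, and the median was -0.09. Gene by gene, 1 (14.3%) was above and 0 were below in all BANIC fish, against 6.0% and 9.19% of all genes.

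The genes that had been called against isolated fish in an earlier pass over these arrays divided in 2. The early genes among them were higher in BANIC, as above, while most of the others did not separate the groups. pcdh2ab7, a clustered protocadherin, had 4.66, 4.83 and 4.92 in BANIC and 4.80, 4.88 and 4.71 in BINIC, a difference of 0.01 ± 0.09, and pcdhga10 differed by 0.23. vwa7 differed by -0.16, dap1b by -0.45 (0.08 and 0.03 in its 2 other probe sets) and zgc:153935 by -0.74 (unadjusted P = 0.0242), with overlap in each. msh4, of meiotic recombination, was at 3.53 to 3.77 in the 6 fish except BANIC3, which had 5.03. soga3b was at 5.34 to 5.63 except in BINIC1, which had 6.94.

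A few genes had large steps between single fish that crossed the groups. ftr50, of the fish-specific finTRIM family, had 2.59, 2.60 and 1.69 in BANIC and 1.71, 6.16 and 6.38 in BINIC. si:ch73-221f6.1, in the study's tables a copy of znf507, had 5.21, 5.54 and 5.69 in BANIC and 2.57, 2.51 and 5.62 in BINIC. Their differences of -2.46 ± 1.15 and 1.91 ± 0.77 were thus large and imprecise, because 1 inattentive fish in each had the level of the attentive ones. That fish was BINIC1 for ftr50 and BINIC3 for si:ch73-221f6.1.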

How the data were processed

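The deposited values are log2 values that the authors made with oligo by RMA, which corrects background, quantile-normalizes all arrays and summarizes probe sets. Of 23467 probe sets, 678 with several genes and 2596 that the annotation does not list were not fitted; 3 were named through the tables of the paper. The 20196 others, 19142 genes, were tested with limma 3.58.1 (R 4.3.3) and Benjamini-Hochberg adjustment. A gene is described by its probe set of highest mean. Names come from Entrez IDs in RefSeq, assembly GRCz12tu (18629 genes found). The comparison, the 17 pathway lists and the 16 marker lists were chosen with earlier results of these data known, so counts in lists are descriptions. Named genes are those called, the 15 of smallest P each way with a proper symbol, those called in an earlier pass, and up to 4 of smallest P per list; others were named after their values were seen. In simulated data of 20196 probe sets 75 of 100 changes of 1 (log2) and 99 of 100 of 2 passed the FDR threshold, as did 4 unchanged probe sets. The fold threshold was not applied there, so these are not shares of genes called by both thresholds. Both sets of changes were planted in the same fit, which loosens the adjusted cutoff, whereas 1 gene passed in the real comparison. The shares are therefore not the power of this comparison. The 3 arrays per group limit the precision. A planned search of promoters was not run. Replicate numbers did not pair the fish.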

Additional observations from a re-analysis of the deposited data

How the results depend on the processing

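LOC100331149 was called under 10 other settings and in each fit without 1 fish, and with a fit of all 4 groups 0 genes were called. Leaving out each replicate gave 1 to 3 called genes, 257 to 327 genes at P under 0.01, 4635 to 5023 whose groups did not overlap, 49.7 to 53.3% with the direction of BIC against ISOL, and 0 to 2 in the test of the difference between the 2 comparisons. With a fish left out fewer values have to separate, so the count without overlap rises by construction. With the replicate number as a block there were 1 and 252 genes; same-numbered fish deviated with correlations of -0.077 to 0.042, so the numbers are only names. The SD filter of the methods left 163 genes at P under 0.01 and 1380 not overlapping, of 9571 tested. Trended and robust eBayes gave 16 genes at the FDR threshold against 1, and rbm12bb by its second probe set. The genes called beside LOC100331149 were ftr50 and junbb without BINIC1 and si:ch73-221f6.1 and mxg without BINIC3, the fish whose value lay nearest BANIC, so these calls follow from what was left out. Of the 362, 157 were higher, against 181 of 349 after median centring and 197 of 374 after quantile normalization. Without overlap, BANIC was above in 6.0% and below in 9.19% of all genes, but in 7.28% and 7.52% after quantile normalization. Leaving out 1 fish turned the sign of pcdh2ab7 (-0.05 without BANIC3 to 0.08), soga3b (-0.74 to 0.07, the latter without BINIC1), pitx3 (-0.01 without BANIC3 to 0.13) and kctd12.1 (-0.19 to 0.02, the latter without BINIC1). A fit of every probe set of the table (406 genes at P under 0.01) and the list counts under other settings were added after seeing the data.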
